A study of Mus musculus with 8 samples.

Results

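The genes described here encode the proteins of the cytosolic ribosome. They were taken as every gene whose symbol begins with Rpl, for the large subunit, or Rps, for the small subunit, followed by a digit, without the Rps6k kinase genes. By this rule 46 of the 12393 genes measured by a probe set with a single symbol were ribosomal protein genes, 24 of the large and 22 of the small subunit. Each gene was represented by its probe set with the highest mean signal. Of the 46 probe sets used, 16 have the plain suffix _at and 30 another one (_a_at, _s_at or _x_at). The latter may also pick up related transcripts, and whether their signals belong to the named gene alone was not tested. The left ventricle of male mice aged 2 to 4 months gave the total RNA, which was hybridised to 1 Affymetrix array for each of 8 groups. These were MRL/MpJ mice, untreated or on day 3, 30 or 60 after LAD ligation, in which the left anterior descending branch of the coronary arteries is tied, and C57BL/6 mice at the same 4 stages. The operation stops blood flow to part of the ventricle and produces an infarct. MRL/MpJ is an inbred strain known to close holes punched in the ear, and C57BL/6 is a common inbred strain. The hearts for comparison were untreated and not sham-operated, and the labels do not say whether an array held RNA of 1 animal or of several.

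A ribosome joins a small subunit, which reads the messenger RNA, to a large subunit, which links the amino acids, and each subunit is built from ribosomal RNA and many small proteins. In mammals the mRNAs of these proteins are abundant and typically start with a C followed by a run of pyrimidines, the 5′ terminal oligopyrimidine (TOP) tract, through which the mTOR pathway sets how much of them is translated. Heart muscle cells are known to make more ribosomes when they enlarge under load. A few ribosomal proteins have a paralog encoded by another gene that can take their place in some tissues, such as Rpl3l, the striated muscle paralog of Rpl3.

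The start of the annotated transcript was read from promoter entries (build GRCm38.p6), which covered 39 of the 46 genes, and 7 had no such entry. All 46 genes were matched to RefSeq by symbol. In 7 of the 39 genes, or 17.9%, at least 1 annotated start was a C followed by at least 4 bases that were each C or T, read on the transcribed strand only. The same held for 3.01% of the 27025 genes with an entry. Within the window from 5 bases before to 15 bases after an annotated start, such a run of 5 bases lay in 23 of the 39 genes, against 27.7% of all genes. The following sequences show 30 bases, 10 before the start and 20 from it, for 5 genes with the tract at the start and for 3 genes without it whose signals are described below. Capitals mark the pyrimidine tract from the start base on, and all letters are 5′ to 3′ on the strand of the gene.
Rpl35 (chr2:39005112-39005141, minus strand): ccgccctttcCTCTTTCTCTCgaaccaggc
Rps10 (chr17:27635225-27635254, minus strand): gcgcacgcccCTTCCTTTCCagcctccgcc
Rps18 (chr17:33955646-33955675, minus strand): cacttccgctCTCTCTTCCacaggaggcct
Rps27 (chr3:90213629-90213658, minus strand): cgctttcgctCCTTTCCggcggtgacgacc
Rps6 (chr4:86857348-86857377, minus strand): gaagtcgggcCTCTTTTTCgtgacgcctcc
Rpl22l1 (chr3:28805498-28805527, plus strand): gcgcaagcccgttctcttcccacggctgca
Rpl22 (chr4:152324426-152324455, plus strand): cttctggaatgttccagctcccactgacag
Rpl3l (chr17:24727816-24727845, plus strand): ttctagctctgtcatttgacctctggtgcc
Rpl22 and Rpl3l each have another annotated start, which also lacks the tract. These letters describe the annotated starts and not the starts used in these hearts.

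The deposited values are MAS5 signals, a linear measure of brightness in which each array was scaled to nearly the same trimmed mean, from 247.2 to 248.4. Signals of different probe sets cannot be compared with each other, so levels are compared only within a gene. Differences are given on the log2(signal + 28.6) scale, which understates the change of dim genes. Of the 46 genes, 42 passed the filter of a signal of at least 121 in at least 2 arrays, as did 8195 of all 12393 genes. The other 4 were Rpl12, Rpl14, Rpl39l and Rps15a-ps6, a transcribed pseudogene, whose signals lay between 0.6 and 156.2. Rpl14 had 8.1, 4.4, 9.3 and 3.5 in MRL/MpJ hearts and 2.5, 10.1, 156 and 52.5 in C57BL/6 hearts, in the order untreated, day 3, day 30 and day 60, so only the C57BL/6 day 30 array reached the limit. The 42 tested genes comprised 37 standard ribosomal protein genes and 5 paralogs or pseudogenes (Rpl3l, Rpl7l1, Rpl22l1, Rps27l and Rps4l). The C57BL/6 day 30 array stood apart: across genes, which are not independent replicates, its log2 values had r between 0.844 and 0.877 with the other arrays, which had r between 0.884 and 0.948 with each other. The heart muscle markers were present in every array, with a summed signal of 146698 or more over 10 genes.

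With 1 array a group, the error of each test came from how the strains and time points departed from an additive model fitted with limma, with 3 residual degrees of freedom. The p-values therefore measure the spread between these arrays, which may be technical. Benjamini-Hochberg adjustment ran over the 8195 genes, and a gene passed at an adjusted p under 0.05. In bulk tissue fewer cells of a type and less RNA per cell cannot be told apart.

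Ribosomal protein genes lay above the untreated hearts as a group on each day after ligation, by a small amount, and no single gene passed the test. The median log2 difference of the 42 genes was 0.16 on day 3, 0.22 on day 30 and 0.26 on day 60, against 0.019, -0.006 and -0.064 over all genes tested. On day 3, 36 of the 42 lay above untreated, where 52.2% of all genes tested did. The counts were 35 of 42 on day 30, against 49.5%, and 30 of 42 on day 60, against 42.5%. Called genes numbered 0 of the 42 on each day, and limma called 0% of all genes on day 3, 0.0122% on day 30 and 0.0366% on day 60. At an unadjusted p under 0.05 there were 3 of the 42 on day 3, 4 on day 30 and 8 on day 60, where the shares over all genes were 6.53%, 11% and 10.6%. Over the 3 days together limma's moderated F test called 0 of the 42 and 0% of all genes, with 2 of the 42 and 8.68% of all genes at an unadjusted p under 0.05.

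The size of these differences depended on single arrays. Median log2 values of the 42 genes were 11.73 untreated, 11.89 on day 3, 11.97 on day 30 and 11.88 on day 60 in MRL/MpJ hearts. In C57BL/6 hearts they were 11.40 untreated, 11.60 on day 3, 11.70 on day 30 and 11.84 on day 60. As a share of the signal of all 12393 genes, all 46 ribosomal protein genes summed to 2.80%, 3.15%, 3.21% and 3.17% in the MRL/MpJ arrays. The order is untreated, day 3, day 30 and day 60. In the C57BL/6 arrays the shares were 2.44%, 2.73%, 2.80% and 3.22%. The C57BL/6 untreated array held the lowest of the 8 values for 26 of the 42 genes, against 12.2% of all genes tested. Highest values fell in the MRL/MpJ day 30 array for 12 of the 42, where the share of all genes was 8.59%, and in the C57BL/6 day 60 array for 10, where it was 6.19%. Without the untreated C57BL/6 array the medians were 0.099, 0.13 and 0.15 on days 3, 30 and 60, with 30, 33 and 30 of the 42 above. Leaving out the untreated MRL/MpJ array instead gave 0.30, 0.34 and 0.36. The day 60 median was 0.39 without the MRL/MpJ day 60 array and 0.13 without the C57BL/6 day 60 array, and the day 30 median was 0.25 without the C57BL/6 day 30 array that stood apart.

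**Figure D1:**
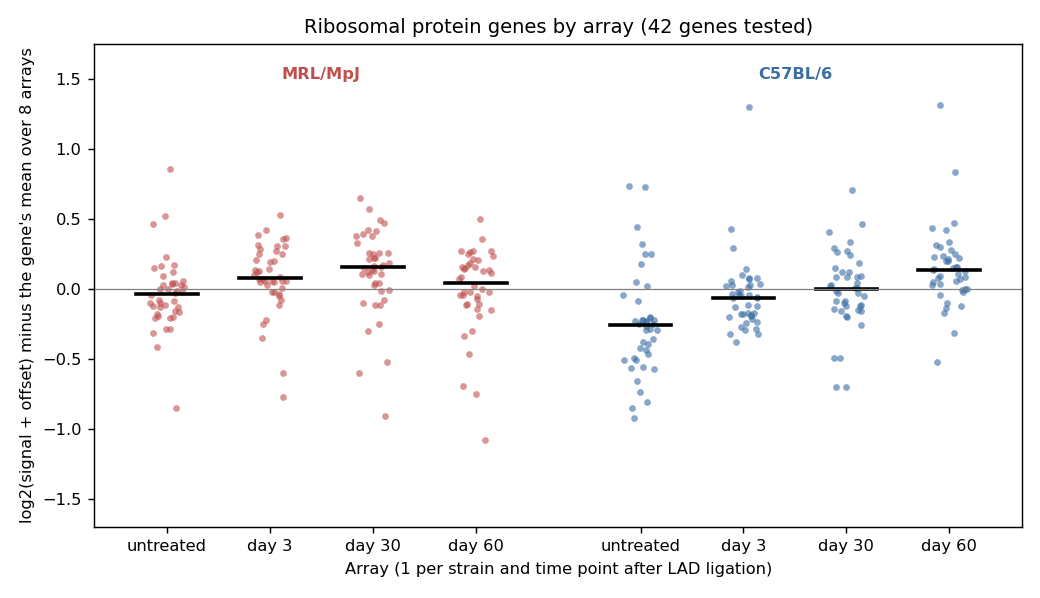
Each point is 1 of the 42 ribosomal protein genes tested, plotted by array (1 array per strain and stage) as its log2(signal + 28.6) minus the mean of that gene over the 8 arrays, and black bars are medians. The C57BL/6 untreated array lies lowest, with 26 of the 42 genes at the lowest of their 8 values there.

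Within each strain, where 1 array stands against 1 and no test is possible, the genes moved by different amounts. In MRL/MpJ hearts the median was 0.14 on day 3, 0.18 on day 30 and 0.099 on day 60, with 34, 33 and 26 of the 42 above the untreated array. In C57BL/6 hearts it was 0.26, 0.30 and 0.45, with 31, 32 and 37 of the 42 above. Changes of 2-fold or more were rare among them. Up by 2-fold or more were 0 of the 42 on each day in MRL/MpJ hearts, where the shares of all genes were 4.98%, 3.09% and 4.56%. In C57BL/6 hearts the counts were 0 on day 3, 2 on day 30 and 1 on day 60, where the shares were 2.43%, 7.91% and 3.64%. Down by 2-fold or more were 1, 1 and 2 of the 42 in MRL/MpJ hearts, against shares of 2.64%, 2.51% and 2.86%, and 0, 1 and 0 in C57BL/6 hearts, against 1.33%, 6.94% and 2.12%. The range of a gene over the 8 arrays was under 1 on the log2 scale for 31 of the 42, against 54.4% of all genes.

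Both subunits showed the same direction. Large subunit genes had medians of 0.14, 0.20 and 0.36 on days 3, 30 and 60, with 18, 19 and 16 of 21 above untreated. Small subunit genes had medians of 0.19, 0.22 and 0.23, with 18, 16 and 14 of 21 above. The 37 standard genes alone had medians of 0.18, 0.23 and 0.27, with 33, 33 and 27 above. Bright genes in general lay the other way: of the 862 genes tested with a mean log2 over 10, a limit chosen after the values were seen, 32.6%, 36.8% and 39.1% lay above untreated on days 3, 30 and 60, with medians of -0.15, -0.14 and -0.093.

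**Figure D2:**
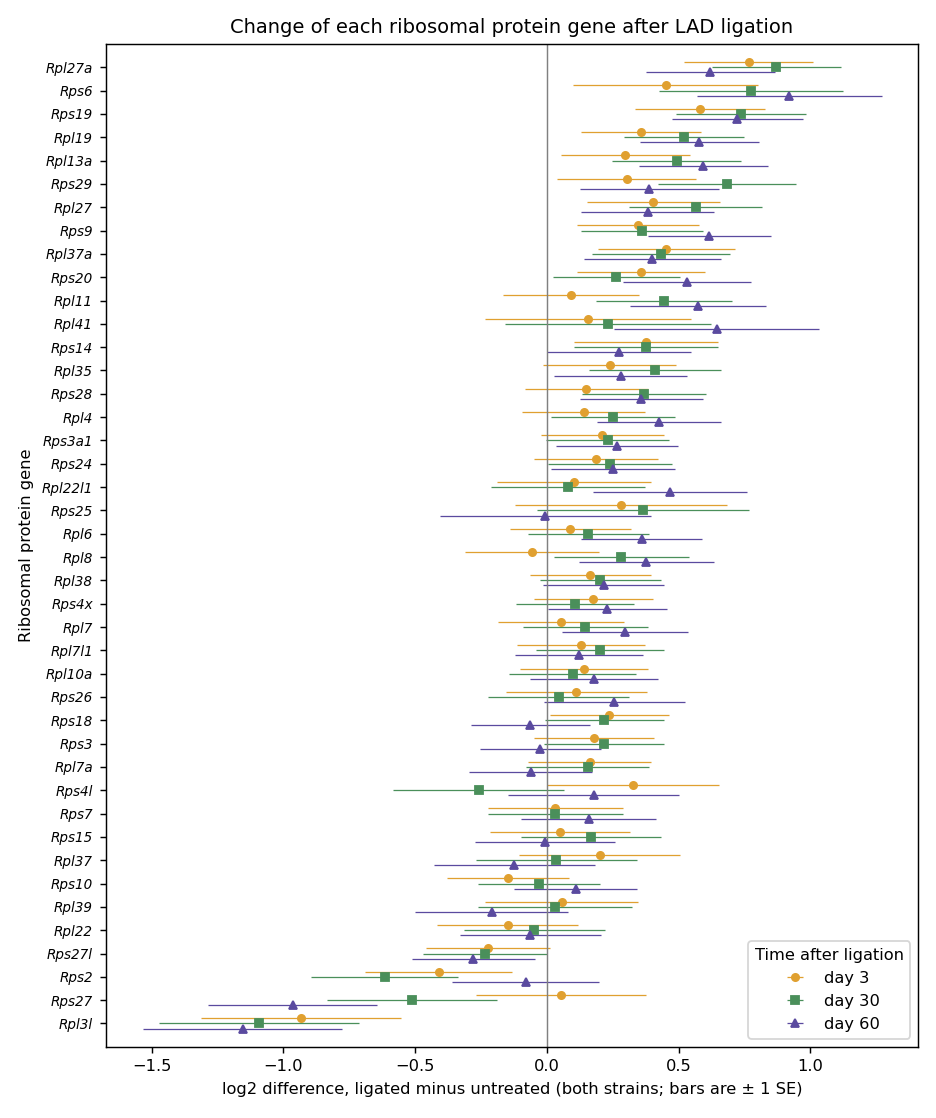
For each of the 42 ribosomal protein genes the log2 difference between the ligated hearts of a day and the untreated hearts, fitted over both strains, is drawn with bars of 1 standard error for day 3, day 30 and day 60. Most genes lie to the right of 0, with Rpl27a at 0.77, 0.87 and 0.62, while Rpl3l lies lowest at -0.93, -1.09 and -1.16.

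Among small subunit genes, Rps19 stood out for a difference shared by both strains. Its protein is needed to process the small subunit's ribosomal RNA, and its mutation in humans causes Diamond-Blackfan anaemia. In MRL/MpJ hearts its signals were 1729.6, 2501, 2995 and 2429 in the order untreated, day 3, day 30 and day 60, which is used for every list of 4 signals below. In C57BL/6 hearts they were 1132, 1779.5, 1844.5 and 2234. All 6 ligated arrays lay above both untreated arrays. The log2 differences from untreated were 0.58 (SE 0.25, adjusted p = 0.756) on day 3, 0.74 (SE 0.25, adjusted p = 0.366) on day 30 and 0.72 (SE 0.25, adjusted p = 0.368) on day 60. None passed.

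Rps6, the small subunit protein phosphorylated by the S6 kinases downstream of mTOR, was dim in the probe set used. Signals of 89.1, 103, 189 and 121 were measured in MRL/MpJ hearts and of 70.9, 137, 129 and 252 in C57BL/6 hearts. The 6 ligated arrays lay above both untreated arrays, and the day 60 difference was 0.92 (SE 0.35, adjusted p = 0.431). Rps6 met the signal filter only through 4 ligated arrays, so that passing it partly fixed this direction. A dimmer probe set of Rps6 gave log2 differences of -0.53, 0.22 and -0.21 on days 3, 30 and 60, so its probe sets disagree in direction on days 3 and 60.

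Rps9, a small subunit protein that binds ribosomal RNA early in assembly, had 2294.5, 2644, 2929.6 and 3194 in MRL/MpJ hearts and 1905, 2687, 2479.7 and 3251 in C57BL/6 hearts. All ligated arrays lay above the untreated ones, and its day 60 difference was 0.62 (SE 0.23, adjusted p = 0.425). In the mean over both strains its 3 probe sets agreed in direction on every day. Rps14, a small subunit protein whose loss marks the 5q- syndrome in humans, had 5281, 7145, 5397 and 5704.5 in MRL/MpJ hearts. It had 4425, 5526, 7313 and 5993 in C57BL/6 hearts, again with no overlap between ligated and untreated arrays in the probe set used. Its differences were 0.38 (SE 0.27, adjusted p = 0.851) on day 3, 0.38 (SE 0.27, adjusted p = 0.61) on day 30 and 0.27 (SE 0.27, adjusted p = 0.768) on day 60. Another bright probe set of Rps14 gave 0.26, 0.31 and 0.23 on these days, but its ligated and untreated arrays overlapped. Rps29, a small zinc-binding protein of the small subunit, had its largest difference on day 30 in the probe set used, with 0.68 (SE 0.26, adjusted p = 0.414). It had 9997.5, 12406, 13171 and 10951 in MRL/MpJ hearts and 7925.5, 9731, 15581 and 12440.0 in C57BL/6 hearts, highest in the C57BL/6 day 30 array that stood apart. Its other probe sets, also bright, gave 0.17 and 0.10 on day 30 and 0.37 and 0.11 on day 60, and neither was highest in that array.

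Not every small subunit gene lay above. Rps2, a protein near the mRNA entry path of the ribosome, had 8042, 7120.5, 4766 and 6648 in MRL/MpJ hearts and 8575, 5471, 6144 and 9281 in C57BL/6 hearts. It lay below untreated in both strains on days 3 and 30, with -0.41 (SE 0.28, adjusted p = 0.842) and -0.62 (SE 0.28, adjusted p = 0.456), while on day 60 the C57BL/6 array held the highest of its values. Rps27, another zinc-binding protein, had 470.4, 494, 209 and 195 in MRL/MpJ hearts and 400.5, 413, 414 and 223 in C57BL/6 hearts. Both day 60 arrays lay below both untreated arrays, with -0.97 (SE 0.32, adjusted p = 0.358), and the MRL/MpJ day 30 array was also low. Rps10, a protein at the small subunit's head that is modified when ribosomes stall, lay below untreated on day 3 in the probe set used, with -0.15 (SE 0.23, adjusted p = 0.928). The mean over its 6 probe sets was 0.11, so no direction holds for Rps10.

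In the large subunit, Rpl27a had the largest upward differences of the tested members on days 3 and 30. Its protein lies in the body of the large subunit. It had 234, 378, 379 and 309.5 in MRL/MpJ hearts and 132, 271, 317.5 and 266.5 in C57BL/6 hearts. The 6 ligated arrays lay above both untreated arrays, and MRL/MpJ lay above C57BL/6 at each stage. Differences from untreated were 0.77 (SE 0.24, adjusted p = 0.633) on day 3, 0.87 (SE 0.24, adjusted p = 0.294) on day 30 and 0.62 (SE 0.24, adjusted p = 0.444) on day 60. A much dimmer probe set of the gene gave -0.25, 0.31 and -0.37.

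Rpl19, a protein whose tail bridges the subunits, had 3579.9, 4228, 5106 and 5057 in MRL/MpJ hearts and 3221, 4488, 4674 and 5117.5 in C57BL/6 hearts. Its ligated arrays all lay above the untreated ones, by 0.36 (SE 0.23, adjusted p = 0.837) on day 3, 0.52 (SE 0.23, adjusted p = 0.455) on day 30 and 0.58 (SE 0.23, adjusted p = 0.439) on day 60. The strains hardly differed in it, with a strain difference of 0.04 (SE 0.16, adjusted p = 0.966). Rpl13a, which is known in human monocytes to leave the ribosome and silence inflammatory mRNAs, had 4170.2, 4648.5, 6005 and 5431 in MRL/MpJ hearts and 3082, 4189, 4258 and 5427 in C57BL/6 hearts. Its day 60 difference was 0.59 (SE 0.24, adjusted p = 0.459), and all ligated arrays lay above both untreated arrays. Rpl27 had 2333, 2961, 2939.8 and 2492 in MRL/MpJ hearts and 2166.5, 3009, 3792 and 3468 in C57BL/6 hearts, with 0.56 (SE 0.25, adjusted p = 0.456) on day 30. In the mean over both strains all 3 probe sets of Rpl27 lay above untreated on each day. In MRL/MpJ hearts alone a dimmer one had 310.9, 230.8, 310.4 and 340.5, and another 279.1, 278.9, 520.8 and 323.2.

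Rpl41, which encodes a very short basic peptide of the large subunit, had 9069, 7453, 13656 and 11136 in MRL/MpJ hearts and 5841, 8845, 5352 and 11662 in C57BL/6 hearts. It lay above untreated in both strains on day 60, by 0.64 (SE 0.39, adjusted p = 0.607), and its signals on days 3 and 30 overlapped the untreated ones. Rpl37a, a zinc-binding protein of the large subunit, had 4830.4, 5608, 5412 and 4948 in MRL/MpJ hearts and 2709, 4396.5, 4428 and 4624 in C57BL/6 hearts. The low value was the untreated C57BL/6 array, and the day 3 difference was 0.45 (SE 0.26, adjusted p = 0.82). Another bright probe set of Rpl37a gave -0.15 on day 3, so its probe sets disagree. Rpl7a and Rpl39 had small differences of either sign, with -0.06 (SE 0.23, adjusted p = 0.961) and -0.21 (SE 0.29, adjusted p = 0.845) on day 60.

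Several other large subunit genes had their lowest signal in the untreated C57BL/6 array. They and the small subunit genes after them were picked after their values were seen, to cover members not yet described, and their differences were not recomputed under other settings. Rpl11, which can bind and block Mdm2 when ribosome assembly is disturbed, had 1781, 1927, 2880.4 and 2456 in MRL/MpJ hearts and 1584, 1667, 1829 and 2578.5 in C57BL/6 hearts. Its day 3 signals overlapped the untreated ones, and its arrays of days 30 and 60 lay above both, with 0.44 (SE 0.26, adjusted p = 0.52) and 0.58 (SE 0.26, adjusted p = 0.492). Rpl38, known in mice for its role in the translation of Hox mRNAs, had 8361, 8815, 8544 and 8899 in MRL/MpJ hearts and 6857, 8186, 8904 and 8701 in C57BL/6 hearts. Apart from the low untreated C57BL/6 array its values were nearly level, and its day 60 difference was 0.22 (SE 0.23, adjusted p = 0.786). Rpl35, a protein at the exit of the peptide tunnel, had 3508, 3750.1, 4533 and 3451 in MRL/MpJ hearts and 2384, 3114, 3280.3 and 3588 in C57BL/6 hearts. Its untreated C57BL/6 array was lowest too, and its day 30 difference was 0.41 (SE 0.25, adjusted p = 0.539). The large subunit genes Rpl4, Rpl6, Rpl7, Rpl8 and Rpl10a lay between -0.06 and 0.14 on day 3 and between 0.18 and 0.43 on day 60, with both day 60 arrays above both untreated arrays for each of the 5.

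Among the remaining small subunit genes, Rps3a1 and Rps24 had small differences in the probe set used, without overlap between all ligated and both untreated arrays. Rps24, another gene mutated in Diamond-Blackfan anaemia in humans, had 6117, 6228, 6882 and 6321 in MRL/MpJ hearts and 5148, 6568.5, 6400.1 and 7054 in C57BL/6 hearts, with 0.25 (SE 0.24, adjusted p = 0.752) on day 60. Another bright probe set of Rps24 gave -0.04, -0.28 and -0.02 on days 3, 30 and 60, so its probe sets disagree. Rps3a1 had 4865, 5417, 5191 and 5149 in MRL/MpJ hearts and 4397, 5291, 5686 and 6024 in C57BL/6 hearts, with 0.27 (SE 0.23, adjusted p = 0.731) on day 60. Rps20, a protein of the small subunit's head, had 2246, 2611, 2633.5 and 2750.2 in MRL/MpJ hearts and 1529.9, 2177, 1892 and 2638 in C57BL/6 hearts. In the probe set used it lay above the untreated array of its strain on each day in both strains. Its day 60 difference was 0.53 (SE 0.24, adjusted p = 0.5). Another bright probe set of Rps20 gave 0.28, 0.11 and 0.62 on days 3, 30 and 60. Dim ones gave 0.29, -0.31 and -0.64, and -0.09, -0.27 and -0.17, so its probe sets disagree. Rps28, which contacts the mRNA at the exit site, had 6987, 7345, 8458 and 7758 in MRL/MpJ hearts and 5283, 6198, 7289 and 7844 in C57BL/6 hearts, with 0.37 (SE 0.23, adjusted p = 0.553) on day 30. Rps3, Rps15 and Rps18 had day 60 differences between -0.063 and -0.0071, and on that day each lay below untreated in MRL/MpJ hearts and above it in C57BL/6 hearts. Another bright probe set of Rps15 gave 0.52 on day 60 and lay above untreated in both strains, so its probe sets disagree.

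Genes whose groups did not overlap were also counted, in the probe set used for each gene only. Both day 3 arrays lay above both untreated arrays for 13 of the 42 genes and below for 4, where the shares of all genes were 21.8% and 17.6%. On day 30 the counts were 18 and 3, against 18.6% and 20.7%. On day 60 they were 25 and 4, against 20.7% and 29.9%. All 6 ligated arrays lay above both untreated arrays for 10 genes, against 6.71% of all genes, namely Rpl13a, Rpl19, Rpl27, Rpl27a, Rps3a1, Rps6, Rps9, Rps14, Rps19 and Rps24. Rps6, which passed the filter only through ligated arrays, is also in the counts of genes above untreated on each day, and its place there is no independent support. They lay below both for Rpl3l and Rps27l, where the share of all genes was 7.11%.

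The probe sets that the choice of 1 per gene left out pointed the same way. They are other probes on the same 8 arrays and so share their RNA. Of 39 further probe sets of these genes that passed the filter, 33 lay above untreated on day 3, 28 on day 30 and 30 on day 60, with medians of 0.19, 0.22 and 0.36. A further 101 probe sets carry several symbols that include a ribosomal protein symbol, and 86 of them passed. Of these 86, 67, 71 and 72 lay above untreated on days 3, 30 and 60, with medians of 0.16, 0.26 and 0.30. In 27 cases a ribosomal protein symbol occurs only on such a probe set, Rpl3 among them, and these genes are not described singly. Of the 46 genes, 14 also occur on such probe sets.

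Among the paralogs, Rpl3l and Rps27l lay below untreated after ligation. Rpl3l is the paralog of Rpl3 that striated muscle uses, and it is known in mice to fall when muscle grows. In MRL/MpJ hearts it had 2148, 916.5, 1269 and 684.5 and in C57BL/6 hearts 1971, 1237, 710.0 and 1202. All 6 ligated arrays lay below both untreated arrays. The differences from untreated were -0.93 (SE 0.38, adjusted p = 0.755) on day 3, -1.09 (SE 0.38, adjusted p = 0.377) on day 30 and -1.16 (SE 0.38, adjusted p = 0.353) on day 60, the lowest of the 42 genes on each day. None passed, and the day 30 difference was -0.50 without the C57BL/6 day 30 array. Rps27l, a paralog of Rps27 induced by p53, had 1284, 1265, 1213 and 1138 in MRL/MpJ hearts and 1408, 1040.1, 1067 and 1069.8 in C57BL/6 hearts. Its ligated arrays all lay below the untreated ones in this probe set, with a log2 difference of -0.28 (SE 0.23, adjusted p = 0.717) on day 60, but its other 2 probe sets gave -0.01 and 0.06 on that day. Rpl7l1 lay within 285 to 347 in 7 of the 8 arrays and at 261 in the untreated C57BL/6 array.

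**Figure D3:**
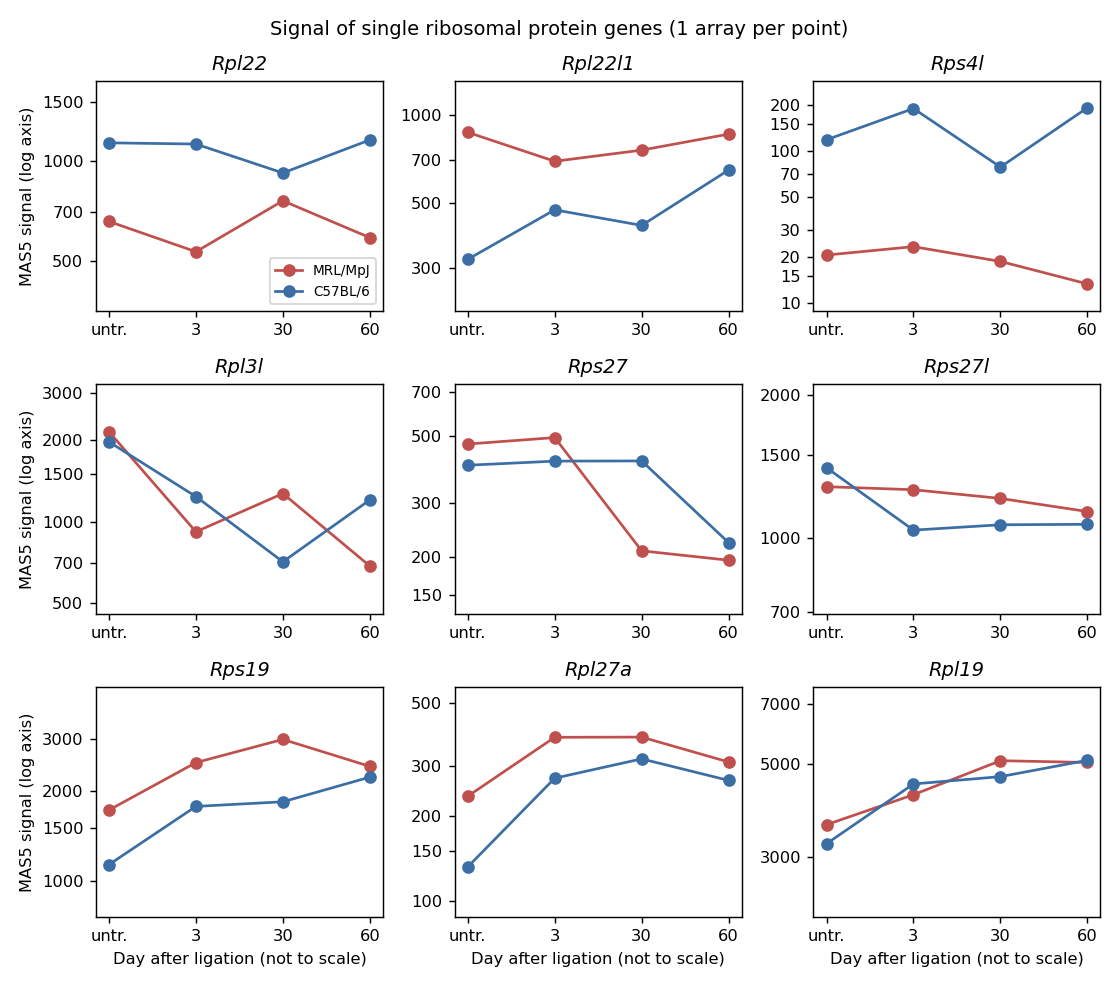
MAS5 signals (log axis) of 9 ribosomal protein genes and paralogs are drawn against the stage (untreated, day 3, day 30, day 60; not to scale), 1 array per point, with MRL/MpJ in red and C57BL/6 in blue. Rpl22, Rpl22l1 and Rps4l separate the strains at every stage, Rpl3l and Rps27l lie highest in the untreated arrays, and Rps19, Rpl27a and Rpl19 lie lowest there.

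Between the strains, 1 of the 42 genes passed, against 0.22% of all genes tested. This was Rps4l, a transcribed pseudogene in RefSeq that resembles the small subunit gene Rps4x. Its signals were 20.6, 23.4, 18.7 and 13.3 in MRL/MpJ hearts, all below the offset of 28.6, and 118.5, 190.3, 78.3 and 192.5 in C57BL/6 hearts. It was lower in MRL/MpJ in 4 of 4 pairs, with a strain difference of -1.81 (SE 0.23, adjusted p = 0.0319). Rps4l met the signal filter only through the C57BL/6 day 3 and day 60 arrays, a route by which a gene that passed had to differ between the strains. The call was lost with an offset of 1, with each array centred on its median, with no filter, with an intensity trend, and without any 1 of the arrays other than the day 30 pair. Rps4x itself had 4367, 4840.3, 4399.8 and 4807 in MRL/MpJ hearts and 3786, 4375, 4361 and 4743 in C57BL/6 hearts, with 0.10 (SE 0.16, adjusted p = 0.905).

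Rpl22 and its paralog Rpl22l1 lay in opposite directions. Rpl22 encodes an RNA-binding protein of the large subunit, and Rpl22l1 is known to be raised in mice that lack Rpl22. Rpl22 had 658, 534, 758.5 and 589 in MRL/MpJ hearts and 1131, 1121.5, 919 and 1154 in C57BL/6 hearts. It was lower in MRL/MpJ in 4 of 4 pairs without overlap, with a log2 difference of -0.75 (SE 0.19, adjusted p = 0.303). Its other probe set gave -0.34, with overlap between the strains. Rpl22l1 had 874, 695, 759 and 862 in MRL/MpJ hearts and 320.2, 474, 419 and 649 in C57BL/6 hearts. It was higher in MRL/MpJ in 4 of 4 pairs without overlap, by 0.78 (SE 0.21, adjusted p = 0.321). Neither passed the test. The C57BL/6 signals of Rpl22l1 were highest on day 60, where the strains lay closest.

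Ribosomal protein genes as a group lay slightly higher in MRL/MpJ hearts. The median strain difference of the 42 genes was 0.11, with 31 above 0, against a median of -0.018 and 46.7% of all genes. At an unadjusted p under 0.05 there were 4 of the 42, against 7.96% of all genes, namely Rpl22, Rpl22l1, Rps4l and Rps19. Pair by pair the median was 0.24 in untreated hearts, 0.24 on day 3, 0.20 on day 30 and -0.051 on day 60, with 33, 31, 28 and 15 of the 42 higher in MRL/MpJ. Without overlap between the strains, Rpl22l1 and Rpl37a were higher in MRL/MpJ, against 1.82% of all genes, and Rpl22 and Rps4l were lower, against 2.37%. For Rpl37a this held in the probe set used only, and its other probe sets gave strain differences of 0.21, with overlap, and -0.087. The other probe set of Rpl22 also overlapped between the strains, with -0.34. Rps4l, which met the signal filter through no MRL/MpJ array, is in the count at an unadjusted p under 0.05 and among the genes without overlap. Its place there is no independent support. Rps19 was higher in MRL/MpJ in 4 of 4 pairs, by 0.47 (SE 0.18, adjusted p = 0.537), and so were Rps26, by 0.36 (SE 0.19, adjusted p = 0.683), and Rps20, by 0.33 (SE 0.17, adjusted p = 0.679). The other probe sets showed the same direction, with 30 of 39 and 76 of 86 above 0 and medians of 0.17 and 0.20.

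A further term asked whether MRL/MpJ and C57BL/6 hearts differed after ligation by another amount than when untreated, computed as the strain difference in ligated hearts minus that in untreated hearts and tested with 2 residual degrees of freedom. It called 0 of the 42 genes and 0% of all genes, and at an unadjusted p under 0.05 there were 0 of the 42 and 2.04% of all genes. The median of the 42 was -0.25, with 30 below 0, where 51.9% of all genes lay below 0. Rpl22l1 had the lowest value, -0.79 (SE 0.45, adjusted p = 1), followed by Rps25, a protein of the small subunit's head, with -0.75 (SE 0.66, adjusted p = 1). Rpl37a had -0.58 (SE 0.43, adjusted p = 1), and Rpl10a, a protein of the stalk near the tRNA exit site, lay at the other end with 0.37 (SE 0.44, adjusted p = 1). The difference rests on the single untreated pair, in which the C57BL/6 array was low for most of the genes, and the median was -0.13 without either day 60 array.

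Markers of some cell types lay above untreated on each day after ligation, and those of others did not. All 10 macrophage markers lay above untreated on each day, and their summed signal was 8777 to 12438 in the ligated arrays against 4360.1 to 6541 in the untreated ones. For 8 of 8 fibroblast markers the same held, with 22689 to 55853 against 9059.9 to 9439. The 6 pan-leukocyte markers summed to 1785 to 2399 in ligated and 925 to 1308 in untreated arrays, with 6 of 6 above on each day. Heart muscle markers summed to 147854 to 280509 in ligated and 146698 to 169561 in untreated arrays, with 7, 7 and 4 of 10 above on days 3, 30 and 60. On the same days endothelial markers lay above untreated for 2, 3 and 3 of 8, and smooth muscle markers for 2, 3 and 3 of 5. Some markers were dim, such as the macrophage marker Gpnmb, at 15.1 and 12.2 in the untreated MRL/MpJ and C57BL/6 arrays. The part of these cell types in the differences of ribosomal protein genes was not tested.

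Cytosolic ribosomal proteins whose symbols fall outside the rule were measured in 4 of 6 cases. Fau, whose product is cut to a small subunit protein, lay above untreated by 0.86 (SE 0.27, adjusted p = 0.343) on day 30. Rpsa, a small subunit protein also described as a laminin receptor, had 0.73 (SE 0.23, adjusted p = 0.342) on day 30. Rplp0, the base of the large subunit stalk, had 2524, 2935, 3601 and 2905 in MRL/MpJ hearts and 5119, 5090.0, 4408 and 6167 in C57BL/6 hearts, lower in MRL/MpJ in 4 of 4 pairs with a log2 difference of -0.79 (SE 0.19, adjusted p = 0.274). None passed.

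Mitochondrial ribosomal protein genes, which build the ribosome that translates mitochondrial mRNAs, lay in the opposite direction. Of 74 tested, 11, 11 and 10 lay above untreated on days 3, 30 and 60, with medians of -0.21, -0.23 and -0.32, and 0 passed in either direction on any of the days. Among them Mrps24 had -0.83 (SE 0.23, adjusted p = 0.264) on day 60, and Mrpl28 had -0.89 (SE 0.29, adjusted p = 0.35) on day 30. The difference between the cytosolic and the mitochondrial list was not tested.

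Other genes of translation were counted in the same way. The 12 elongation factors and other TOP mRNAs had medians of 0.024, 0.059 and 0.38 on days 3, 30 and 60, with 7, 7 and 9 above untreated and 0 passing. Vim had the largest differences in this list, 1.43 on day 3, 1.71 on day 30 and 1.61 (SE 0.25, adjusted p = 0.084) on day 60. Eef1a1, which brings aminoacyl-tRNA to the ribosome, had 6911, 14780.0, 12380.0 and 16050.0 in MRL/MpJ hearts and 6346, 8971, 13920.0 and 13600.0 in C57BL/6 hearts, above untreated in all 6 ligated arrays, by 1.15 (SE 0.28, adjusted p = 0.195) on day 60. Pabpc1, the poly(A)-binding protein, had 0.67 (SE 0.23, adjusted p = 0.368). Initiation factors, 32 genes, had medians of -0.059, -0.13 and -0.026, with 12, 13 and 16 above and 0 passing. Ribosome biogenesis genes, 42 in all, had medians of -0.058, -0.030 and 0.0068, with 18, 21 and 21 above and 0 passing. Of the 21 genes of mTOR, Myc and growth signalling, 10, 5 and 4 lay above untreated, with medians of -0.032, -0.15 and -0.20 and 0 passing.

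**Figure D4:**
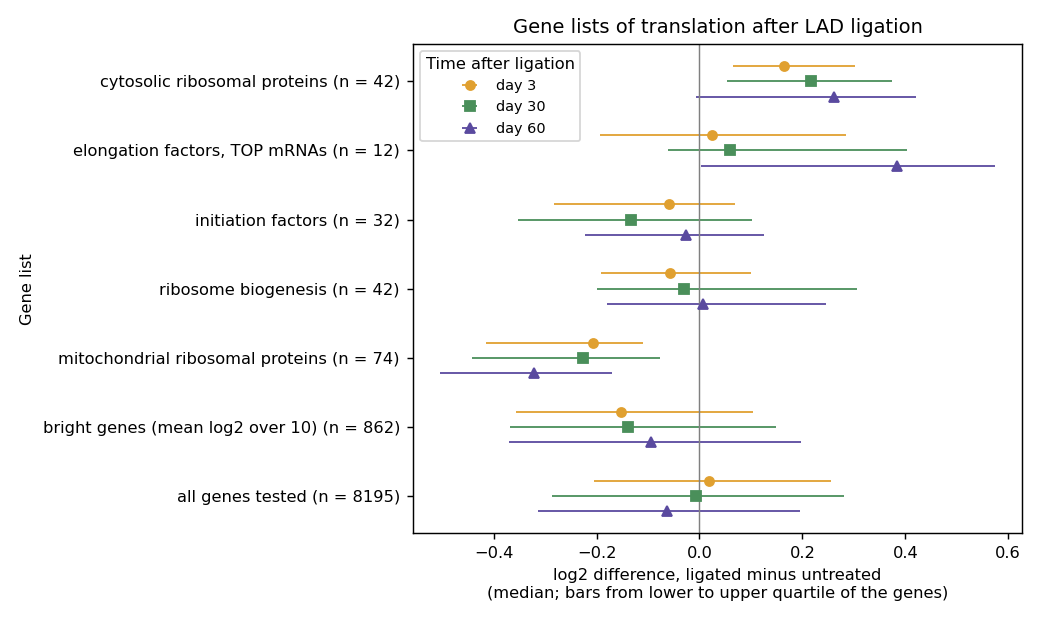
The median log2 difference from untreated (points) and the range from the lower to the upper quartile of the genes (bars) are shown for 5 lists of translation genes, for genes with a mean log2 over 10 and for all genes tested, with day 3 in orange, day 30 in green and day 60 in purple. Cytosolic ribosomal proteins lie at 0.16, 0.22 and 0.26 and mitochondrial ones at -0.21, -0.23 and -0.32.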

How the data were processed

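The authors deposited 1 linear signal intensity for each of 22626 probe sets on each of 8 arrays. The submitters' processing notes name MAS5. Other steps of the authors are not given in the sources used here. Probe sets were named through the platform's annotation, which gave 1 symbol for 20380, several for 691 and none for 1555. A gene with several probe sets was represented by the brightest. Before log2 transformation 28.6 was added to every signal (20th percentile), and a gene was kept if 2 or more of the 8 arrays reached a signal of 121 (median). limma 3.58.1 (R 4.3.3) was fitted to all 8195 genes kept, with strain and time point as terms, and the fit was checked on simulated data. The number of arrays limits the precision. The members, gene lists and tests were chosen with earlier results of these data known. Genes named are those that passed, for each comparison up to 6 with the largest difference in each direction among those with 1 sign in every pair, or else the 5 with the smallest unadjusted p, the 3 brightest and 3 dimmest members, both genes of a paralog pair, members whose probe sets disagree in sign, and up to 4 genes of each pathway list. Members described beyond this rule were chosen after their values were seen. Alternatives changed the offset, normalization, filter, probe set choice, variance model and arrays.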

Additional observations from a re-analysis of the deposited data

How the results depend on the processing

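The labels give no replicate numbers and each group has 1 array, so no fit with replicate as a block was made. The strain comparison pairs the arrays by stage through the time term, and without that term 1 of the 42 genes was again called, with a median of 0.11. Of the values that answer a comparison, 180 stayed within their limits under the alternatives and 22 moved, and for single genes 849 kept direction and call. The count of ribosomal protein genes called between the strains, 1 in all, was 0 with an offset of 1, with each array centred on its median, with no filter, with the filter on the mean signal (Rps4l then left out) and with an intensity trend, and 0 to 1 when each array was left out in turn. Rps4l then had log2 differences from -2.80 with the offset of 1 and -1.77 when centred to -1.81 with no filter or a trend, and from -1.88 to -1.61 in the arrays left out that lost the call. Medians moved to 0.27 on day 3 with quantile normalization and to -0.15 for the difference between ligated and untreated pairs with the mean over probe sets. Leaving out 1 array gave medians of 0.099 to 0.30 on day 3, 0.13 to 0.34 on day 30, 0.13 to 0.39 on day 60, 0.14 to 0.30 over all days, 0.093 to 0.15 between strains and -0.23 to -0.13 for the difference between pairs, which could not be fitted without an untreated array. Signs reversed for Rpl22 on day 3 (0.040 without the MRL/MpJ day 3 array, and from -0.34 over the arrays left out), Rps10 (0.11) and Rps6 (-0.040) on day 3 with the mean over probe sets, Rps4l on day 30 (0.16 without the C57BL/6 day 30 array, and from -0.68 over the arrays left out) and Rpl7a on day 60 (0.10 with quantile normalization, 0.033 without the MRL/MpJ day 60 or the C57BL/6 untreated array, and from -0.15 over the arrays left out). For these and the other values that moved the cause was not tested. With each array centred on its median, 31, 31 and 32 of the 42 genes lay above untreated on days 3, 30 and 60. Signal near the background limits Rps4l, Rps6 and Rps25.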
